A study of Homo sapiens with 21 samples.

Results

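The RB pocket proteins and the E2F factors that they bind were followed at the RNA level across proliferating and senescent human fibroblasts, and across senescent fibroblasts depleted of the G1 kinases that act on them. The 10 genes were RB1, RBL1 and RBL2, which encode the pocket proteins RB, p107 and p130; E2F1, E2F2 and E2F3, the activator E2Fs; E2F4, E2F5 and E2F8, the E2Fs best known as repressors; and TFDP1, which encodes DP1. They were taken by exact gene symbol from the 16383 genes of the deposited table. IMR90 cells, a long-established human line of fibroblasts from lung, gave 21 libraries that formed 7 groups of 3. Proliferating cells were wild type and had no treatment. The other 6 groups were irradiated to make them senescent, were transfected on day 4 and again on day 7 with 5 nM siRNA, and were harvested on day 10 after irradiation. The siRNA was non-targeting #3 (NT3), non-targeting #4 (NT4), or aimed at CCND1, at CDK4, at CDK6, or at both kinases (dual knockdown). Irradiation and transfection were given to the same groups, so their effects on a difference from proliferating cells cannot be told apart. The labels do not say whether the libraries of a group came from separate cultures, so p-values measure the spread between these libraries, which may be technical.

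As background, pocket proteins hold E2F proteins in a repressed state on the promoters of cell cycle genes. Cyclin D1 (CCND1) with CDK4 or CDK6 phosphorylates the pocket proteins, which then release E2F, and the activator E2Fs switch on genes of DNA replication, some of their own genes among them. RB mainly binds the activators, whereas p107 and p130 mainly bind E2F4 and E2F5, with DP1 as the DNA-binding partner, and p130 with E2F4, DP1 and the MuvB proteins forms the DREAM complex that represses cell cycle genes in arrested cells. E2F8 is an atypical member that binds DNA without DP and dampens E2F targets. Pocket proteins are part of the arrest in senescent fibroblasts.

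Sequencing depth was 12892442 to 21822152 reads per library over the genes of the table. Each targeted transcript was lower in the libraries that received its siRNA than in the 6 control libraries (NT3 and NT4 together), with log2 fold changes of -3.05 for CCND1, -3.51 for CDK4 and -2.60 for CDK6 in the single knockdowns, and -3.40 for CDK4 and -2.27 for CDK6 in the dual knockdown. The 9 fibroblast markers had summed values of 4.50e+05 to 5.58e+05 in the control libraries and 6.78e+05 to 8.61e+05 in the dual knockdown, and their part in the results was not tested. The 10 markers of epithelial, endothelial, blood and smooth muscle cells summed to 25.5 to 28.8 in proliferating libraries and averaged 60.0 to 98.9 in the irradiated groups, and 3 of the 10 passed the filter on low values, all 3 called higher in control than in proliferating cells (median log2 fold change 2.07). The highest values in any library were 47.8 for EPCAM, 38.0 for CD14, 22.3 for VWF and 20.6 for PECAM1, while KRT5, KRT14, CDH5 and MYH11 stayed between 0 and 3.28. Their part in the results was not tested. The third NT3 library had the lowest depth of all libraries. It also deviated most from its group mean over all tested genes. The SD of these deviations was 0.3435 on the log2 scale, against 0.1931 to 0.2561 in the other libraries. Among the members it stood apart for RBL2 above all. Called results that change by over 1.5 times without this library, and calls gained or lost, are also given without it. The RNA was from whole cultures, where fewer cells that express a gene and less RNA per cell cannot be told apart.

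Sequence just upstream of the start is shown for 5 members because the letters found there are those that E2F proteins are known to bind, so that members of the family hold them in their own promoters. RefSeq promoter entries (GRCh38.p14) were matched for 8 of the 10 members, in 10 entries, and E2F5 and E2F8 had none. The 250 bases before each start were searched on both strands for TTTCCCGC, TTTGGCGC, TTTCGCGC and TTTGCCGC, 4 spellings of the E2F motif that cannot overlap each other within a strand. RBL1, E2F1, E2F2, E2F3 (at the first of its 2 entries) and TFDP1 held at least 1 match. The entry of RB1, which lies at a start inside the gene, both entries of RBL2, the second entry of E2F3 and that of E2F4 held none. In all, 5 of 10 member entries had a match, against 2.79% of the 35116 promoter entries of that length in RefSeq. Windows of 100 bases follow, 5′ to 3′ on the strand of the gene, with the matches in capitals. RBL1 had 2 matches within 26 bases of its start and E2F1 had 2 within 33 bases.
RBL1 (chr20:37095998-37096097, minus strand): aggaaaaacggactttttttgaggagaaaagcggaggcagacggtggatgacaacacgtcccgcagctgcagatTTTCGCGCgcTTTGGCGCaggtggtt
E2F1 (chr20:33686386-33686485, minus strand): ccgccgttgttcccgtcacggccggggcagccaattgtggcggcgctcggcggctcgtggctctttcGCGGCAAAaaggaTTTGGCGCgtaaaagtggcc
E2F2 (chr1:23531234-23531333, minus strand): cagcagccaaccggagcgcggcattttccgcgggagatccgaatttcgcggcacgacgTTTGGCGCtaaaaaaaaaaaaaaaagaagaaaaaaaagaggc
E2F3 (chr6:20401779-20401878, plus strand): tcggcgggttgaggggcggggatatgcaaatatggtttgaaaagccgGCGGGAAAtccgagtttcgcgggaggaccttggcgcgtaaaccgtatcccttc
TFDP1 (chr13:113584586-113584685, plus strand): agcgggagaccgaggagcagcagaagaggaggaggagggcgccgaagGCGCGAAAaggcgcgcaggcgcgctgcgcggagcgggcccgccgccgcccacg
A match is a run of letters and was not tested as a bound site.

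Levels are given as normalised counts, which are reads divided by the size factor of the library. Between genes they were compared per kilobase of the canonical GENCODE transcript. The read ratios given further below are not divided by transcript length and serve to compare groups. Per kilobase, TFDP1 was the most abundant member in all 7 groups, at 1118 ± 21.9 (SD, n = 3) in proliferating cells, followed by E2F4 at 435 ± 3.09 and RB1 at 346 ± 10.1. E2F2 was the least abundant in all 7 groups and E2F8 the next. RBL2 exceeded RBL1 per kilobase in every group: RBL2 was at 215 and RBL1 at 117.9 in proliferating cells, and at 193 and 28.9 in NT4. On the opposite strand, the annotated span of AKTIP meets an exon of RBL2, that of RBIS an exon of E2F5, and those of non-coding RNAs exons of RBL1, E2F5 and E2F8. Whether exons of these partners lie there was not examined. Whether reads were counted by strand is not given in the sources used here, so reads of those partners may be included. Processed copies named after E2F3 (2), E2F4 (1) and TFDP1 (3) exist in the annotation, and how reads that fit them were assigned is not given either.

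**Figure D1:**
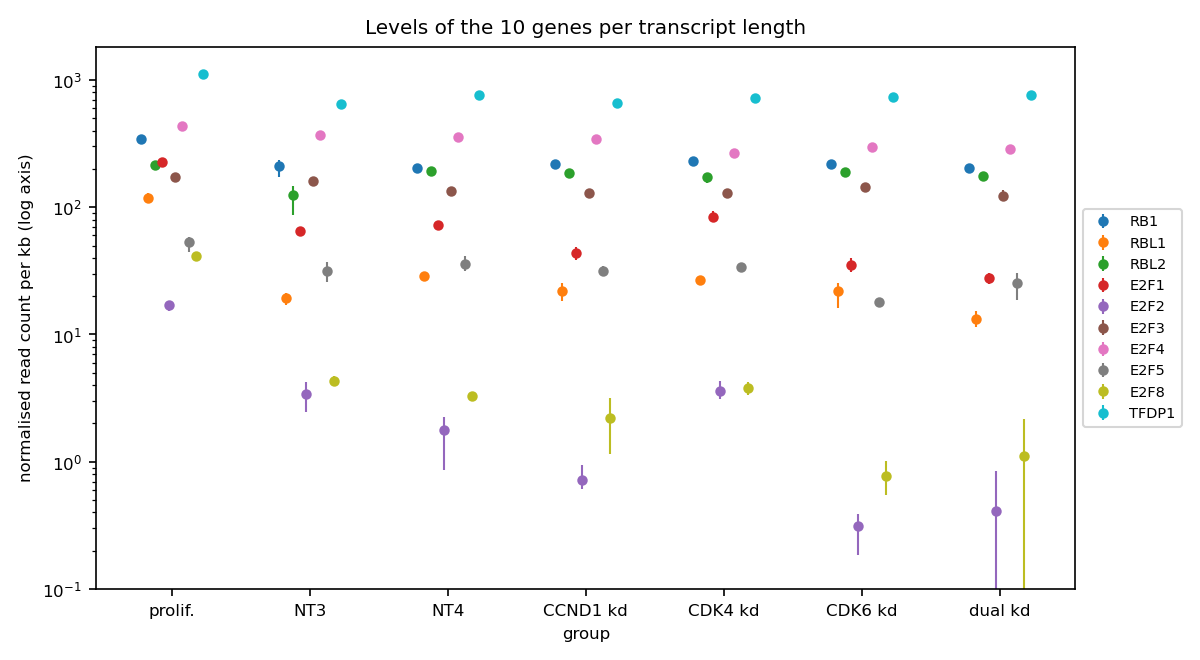
Mean normalised count per kilobase of canonical transcript (log axis) for the 10 genes in the 7 groups, 3 libraries each. TFDP1 lies on top and E2F2 at the bottom in every group, and the points of E2F2 and E2F8 drop furthest from proliferating to irradiated cells. Bars run from the lowest to the highest library, and to the edge of the plot where a library was at 0.

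**Figure D2:**
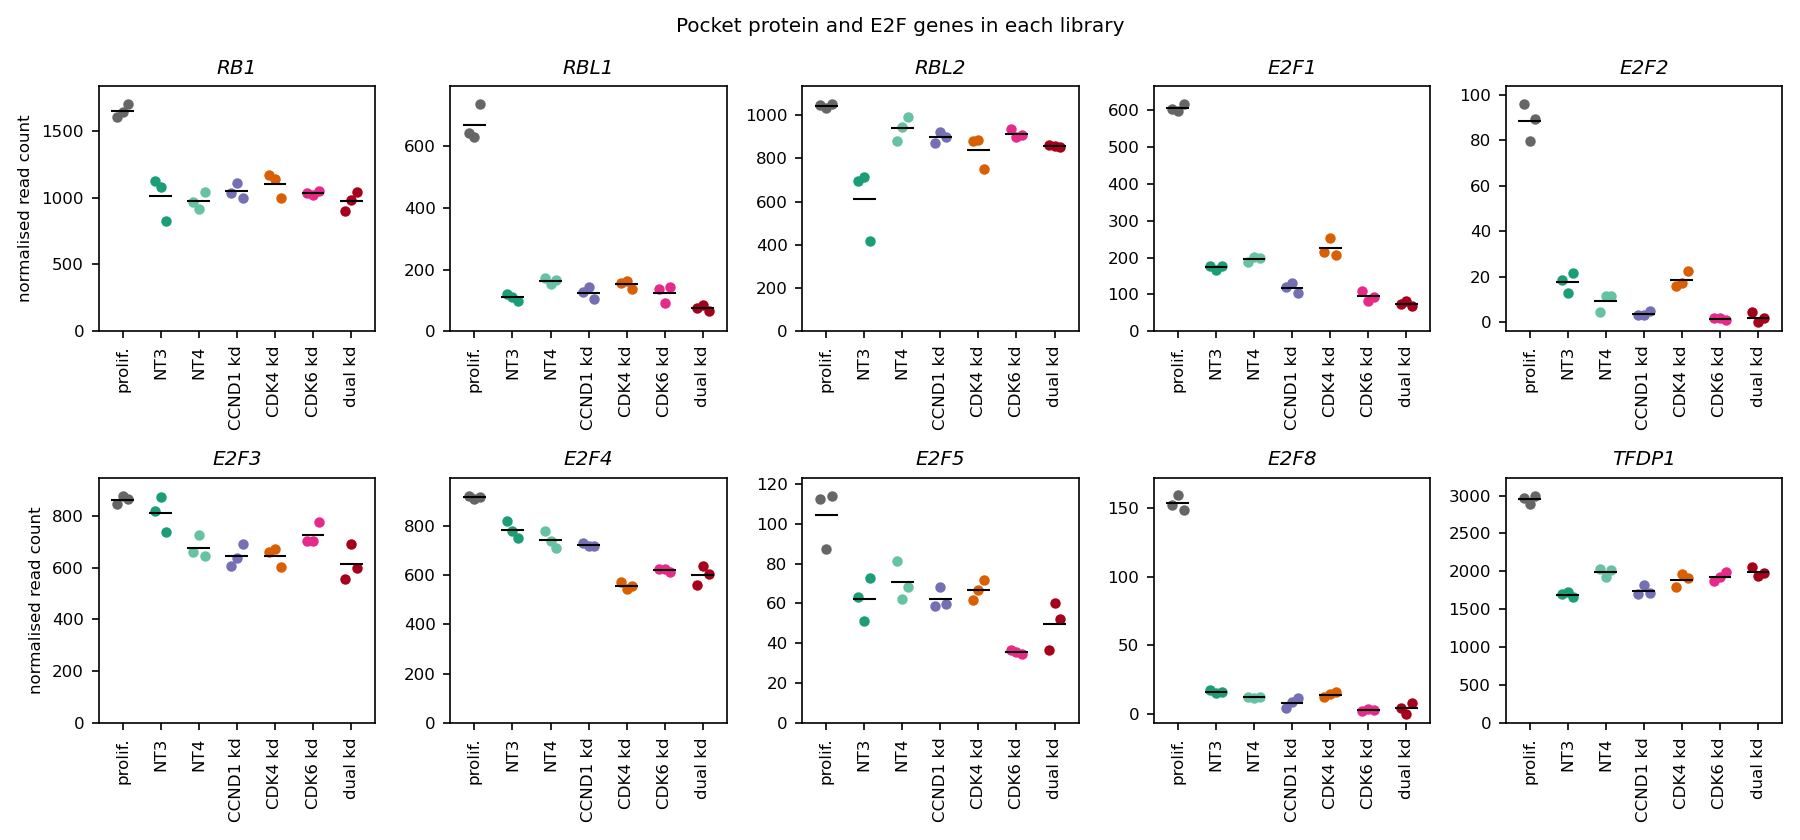
Normalised count of each member in each of the 21 libraries, with 1 panel per gene, points for libraries and bars for group means; axes start at or just below 0. Every member except E2F3 was lower in all irradiated libraries than in any proliferating library. E2F1, E2F2, E2F4 and E2F8 were lower again, below all control libraries, with CDK6 and dual knockdown.

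The first comparison set the 6 control libraries, from cells both irradiated and transfected, against untreated proliferating cells. All 10 members fell, in a comparison where 36.1% of the 11579 tested genes fell and 68.6% were called in either direction. The median log2 fold change of the members was -0.71, against -0.03 for all tested genes. The deepest falls were in E2F8, E2F2, RBL1 and E2F1, which kept 9.70%, 14.8%, 20.2% and 30.5% of the proliferating level. The shallowest were in E2F3 and E2F4, which kept 85.7% and 83.2%. Of the tested genes, 0.138% had a lower log2 fold change than E2F8 and 36.2% a lower one than E2F3. Changes on the log2 scale are given ± SE, and they and the percentages kept come from the fit on log2(value + 1), which understates changes of genes at low counts.

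Among the pocket proteins, RB1 had values of 1604, 1641 and 1699 in proliferating cells, 1122, 1076 and 825 in NT3 and 966, 915 and 1043 in NT4. The groups did not overlap (-0.74 ± 0.079 on the log2 scale, limma adjusted p = 3.41e-08). RBL1 had values of 645, 630.0 and 737 in proliferating cells, 120.4, 112.1 and 97.1 in NT3 and 173, 154 and 166 in NT4. All 3 proliferating libraries were above every control library (-2.31 ± 0.14 on the log2 scale, limma adjusted p = 1.64e-12). RBL2 had values of 1047, 1034 and 1051 in proliferating cells, 696, 715 and 419.9 in NT3 and 883, 945 and 989.7 in NT4 (-0.48 ± 0.11 on the log2 scale, limma adjusted p = 0.000469). The third NT3 library held the lowest RBL2 value of all 21, and without it the fall was -0.36 (limma adjusted p = 1.17e-06). With NT4 as the only control the fall of RBL2 was -0.15 on the log2 scale and not called (limma adjusted p = 0.292). The pocket proteins thus fell by unequal amounts, p107 RNA most.

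Among the activators, E2F1 had values of 604, 599 and 617 in proliferating cells, 176, 167 and 177 in NT3 and 189, 200.5 and 199 in NT4 (-1.71 ± 0.099 on the log2 scale, limma adjusted p = 1.22e-12). No library of one state came near those of the other. E2F2 had values of 96.1, 79.8 and 89.5 in proliferating cells, 18.7, 12.8 and 21.8 in NT3 and 4.45, 11.7 and 11.5 in NT4 (-2.75 ± 0.42 on the log2 scale, limma adjusted p = 4.91e-06). The E2F2 values of the control libraries rest on 18, 18 and 18 reads in NT3 and 4, 12 and 12 in NT4. E2F3 was at 847, 880.0 and 865 in proliferating cells, 820.1, 875 and 740.3 in NT3 and 661, 727 and 645 in NT4, so 1 NT3 library lay within the proliferating range (-0.22 ± 0.072 on the log2 scale, limma adjusted p = 0.00926). Its call was lost with median centring (-0.11, adjusted p = 0.183 by limma), with quantile normalization (-0.13, adjusted p = 0.108) and with NT3 as the only control (-0.09, adjusted p = 0.328).

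Among the repressors, E2F4 had values of 925, 912 and 919 in proliferating cells, 821, 781 and 754 in NT3 and 782, 739.6 and 713 in NT4 (-0.27 ± 0.052 on the log2 scale, limma adjusted p = 0.000112). Its fall was small and the groups did not overlap. E2F5 had values of 112.7, 87.3 and 114.3 in proliferating cells, 63.3, 51.1 and 72.8 in NT3 and 81.2, 62.3 and 68.3 in NT4 (-0.65 ± 0.16 on the log2 scale, limma adjusted p = 0.000987). E2F8 had values of 152, 159.6 and 149 in proliferating cells, 17.6, 14.9 and 15.8 in NT3 and 12.2, 11.7 and 12.5 in NT4 (-3.37 ± 0.45 on the log2 scale, limma adjusted p = 8.94e-07). Its control libraries held 17, 21 and 13 reads in NT3 and 11, 12 and 13 in NT4, so counting error is large there. TFDP1, the DP partner, had values of 2967, 2887 and 2999 in proliferating cells, 1694, 1722 and 1659 in NT3 and 2031, 1919 and 2021 in NT4 (-0.69 ± 0.044 on the log2 scale, limma adjusted p = 8.04e-12). DP1 RNA kept 62.2% and RB1 RNA 59.9% of the proliferating level.

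**Figure D3:**
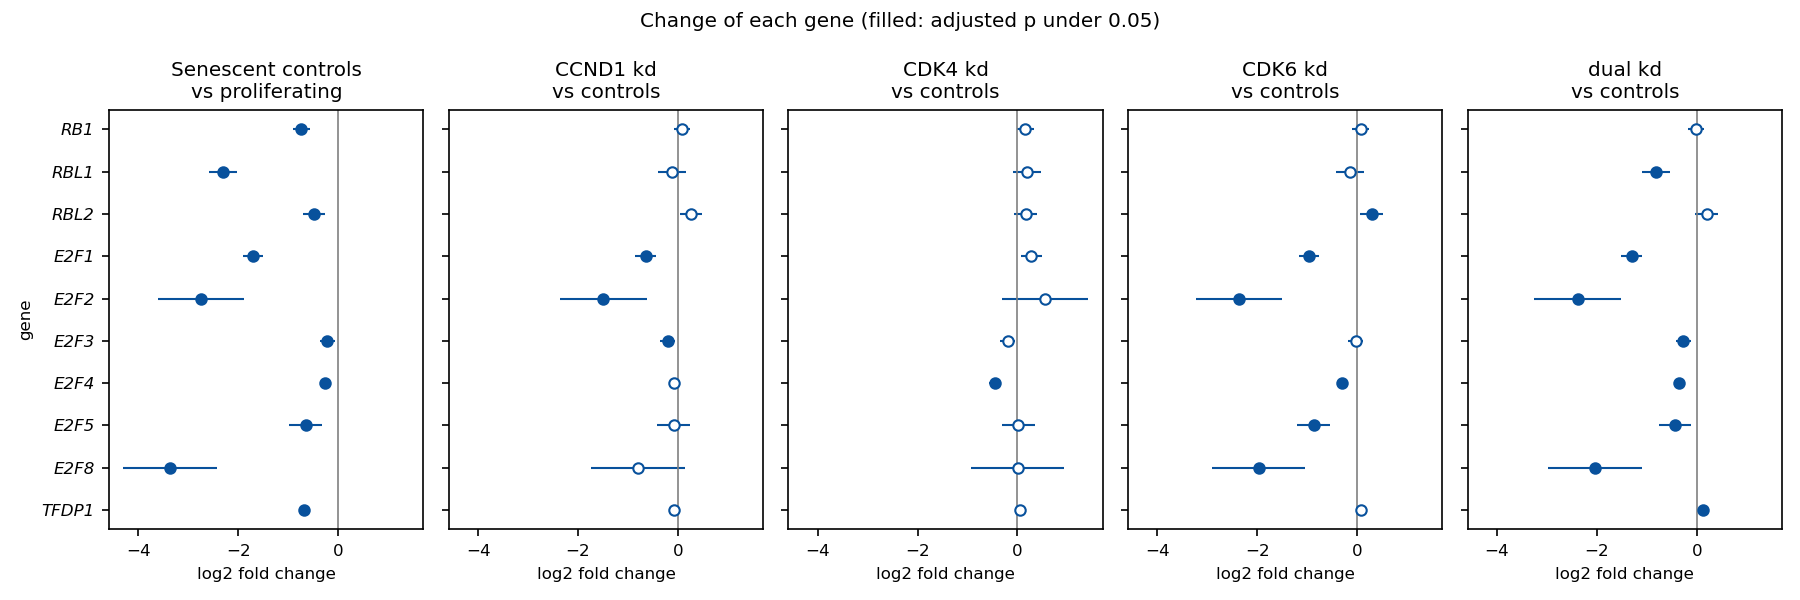
Log2 fold change of each member with its 95% interval in each comparison, all from the same limma fit over the 21 libraries; filled points passed an adjusted p of 0.05. All 10 points lie below 0 in the comparison with proliferating cells, and 7 are called lower in the dual knockdown.

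The 2 control siRNAs differed for some members, which bears on each knockdown result. In NT4 against NT3, 4 of the 10 members were called, in a comparison where 27.8% of the tested genes were called. RBL2 (0.66 ± 0.13 on the log2 scale, limma adjusted p = 0.000473), RBL1 (0.58 ± 0.16 on the log2 scale, limma adjusted p = 0.00849) and TFDP1 (0.23 ± 0.051 on the log2 scale, limma adjusted p = 0.00165) were higher in NT4, and E2F3 was lower (-0.26 ± 0.083 on the log2 scale, limma adjusted p = 0.0241). Without the third NT3 library the RBL2 difference was 0.41 (limma adjusted p = 3.27e-05). The E2F3 call was lost without the first or second NT3 or the first or the third NT4 library. In a fit of NT3 and NT4 alone only the RBL1 call remained, where 8.66% of the tested genes were called. RB1, E2F4 and E2F5 had overlapping NT3 and NT4 libraries. The 4 knockdowns were each set against the mean of NT3 and NT4, so these comparisons share the same 6 control libraries.

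Knockdown of CCND1, the cyclin partner of CDK4 and CDK6, lowered E2F1, while the calls of E2F2 and E2F3 depended on the settings. Of the 10 members 3 fell and none rose, in a comparison where 14.4% of the tested genes fell and 31.0% were called. E2F1 had values of 120.2, 130.2 and 104.04 in the CCND1 knockdown, all below the lowest of the 6 control libraries (-0.64 ± 0.099 on the log2 scale, limma adjusted p = 4.1e-05), and so kept 64.0%. E2F2 had values of 3.19, 3.20 and 4.91 on 3, 3 and 5 reads (-1.49 ± 0.42 on the log2 scale, limma adjusted p = 0.00938). From summed reads over size factors, E2F2 was at 28.5% (exact 95% interval 13.7 to 53.8%) of the controls, an interval that covers counting error only. The E2F2 libraries overlapped the controls, whose lowest value was 4.45 in NT4. With NT4 as the only control the E2F2 call was lost (-1.02, limma adjusted p = 0.15), and so it was with a pseudocount of 0.1 (-1.69, limma adjusted p = 0.0957). E2F3 had values of 606, 638 and 693, which overlapped the controls (-0.20 ± 0.072 on the log2 scale, limma adjusted p = 0.0396), and its call was lost with NT4 alone (-0.07, adjusted p = 0.611 by limma), with median centring and without any 1 of 5 libraries. E2F8 had values of 4.25, 8.54 and 11.8 and did not pass the test (-0.80 ± 0.45 on the log2 scale, limma adjusted p = 0.19). The pocket proteins, E2F4, E2F5 and TFDP1 did not pass either, with log2 fold changes from -0.11 for RBL1 to 0.27 for RBL2. RBL2 was called higher with NT3 as the only control (0.60, limma adjusted p = 0.000814) and with any 1 NT3 library left out (0.32, 0.33 and 0.14), but its value was -0.06 with NT4 alone (limma adjusted p = 0.782). TFDP1 was called lower with NT4 alone (-0.19, limma adjusted p = 0.0107) and with quantile normalization (-0.13).

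Knockdown of CDK4 alone lowered E2F4, and no other member passed the test. This 1 call among 10 members compares with 16.0% of the tested genes called and 7.55% called lower. E2F4 had values of 573, 544 and 557 in the CDK4 knockdown, below all 6 control libraries, whose lowest was 713 (-0.45 ± 0.052 on the log2 scale, limma adjusted p = 3.16e-06), and it kept 73.0%. This was the lowest E2F4 mean of the 7 groups. E2F1 had values of 214, 252 and 208, above all 6 control libraries, and missed the threshold (0.28 ± 0.099 on the log2 scale, limma adjusted p = 0.0596). On recovered reads it was called higher by edgeR (log2 fold change 0.29, adjusted p = 0.0274) and by DESeq2 (0.29, adjusted p = 0.0246). With NT4 as the only control the log2 fold change of E2F1 was 0.19 and not called (limma adjusted p = 0.339). E2F2, at 16.1, 17.3 and 22.6, and E2F8, at 12.3, 14.2 and 15.7, overlapped the controls. The log2 fold change of E2F8 was 0.00 with a 95% interval of -0.93 to 0.94, and that of E2F5 was 0.02 with an interval of -0.31 to 0.34. With NT3 as the only control 6 members were called, where 25.6% of all tested genes were. Without the third NT3 library 3 members were called (E2F4, E2F1 and E2F3), where 23.3% of the tested genes were.

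Knockdown of CDK6 alone lowered E2F genes of both classes. Of the 10 members 5 fell and 1 rose, in a comparison where 41.9% of the tested genes were called and 20.8% fell. E2F1 had values of 107.9, 82.9 and 92.9 (-0.96 ± 0.099 on the log2 scale, limma adjusted p = 1.09e-07) and kept 51.2%. E2F2 had values of 2.04, 1.86 and 0.958, on 2, 2 and 1 reads (-2.36 ± 0.42 on the log2 scale, limma adjusted p = 0.000103). Summed reads put E2F2 at 12.1% (exact 95% interval 3.83 to 29.5%) of the controls. E2F1 and E2F2 in the CDK6 knockdown were below every control library. E2F8 had values of 2.04, 3.73 and 2.87, on 2, 4 and 3 reads (-1.97 ± 0.45 on the log2 scale, limma adjusted p = 0.00132), and summed reads put it at 20.6% (exact 95% interval 9.10 to 40.9%) of the controls. E2F5 had values of 36.6, 35.4 and 34.5, the lowest of the 7 groups (-0.87 ± 0.16 on the log2 scale, limma adjusted p = 0.000136). E2F4 had values of 626, 628 and 613 and kept 81.4% (-0.30 ± 0.052 on the log2 scale, limma adjusted p = 9.61e-05). All 3 repressors thus lay below the control libraries, E2F4 by the least. RBL2 had values of 937, 897 and 908 and was called higher (0.29 ± 0.11 on the log2 scale, limma adjusted p = 0.0348), but the libraries overlapped, and with NT4 as the only control the sign turned (-0.037, adjusted p = 0.858 by limma). Without the third NT3 library it was 0.17 (limma adjusted p = 0.0113), and the call was lost without the first NT4 or any 1 CDK6 knockdown library. RB1, RBL1, E2F3 and TFDP1 did not pass the test, with log2 fold changes from -0.13 to 0.07. RBL1 was called lower with NT4 as the only control (-0.42, limma adjusted p = 0.0442), and TFDP1 higher with NT3 alone (0.19, limma adjusted p = 0.00434).

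Knockdown of CDK4 and CDK6 together lowered RBL1 as well as the E2Fs. Of the 10 members 7 fell and 1 rose, in a comparison where 44.0% of the tested genes were called and 21.5% fell. RBL1 had values of 76.2, 86.3 and 65.1, below every library of the other 6 groups (-0.82 ± 0.14 on the log2 scale, limma adjusted p = 4.21e-05), and kept 56.5% of the control level. RB1 values of 903, 985 and 1043 and RBL2 values of 863, 857 and 851 overlapped the controls, with log2 fold changes of -0.02 (95% interval -0.18 to 0.15) and 0.20 (95% interval -0.03 to 0.43). Of the pocket protein genes, RBL1 was the one called; RBL2 was called higher with NT3 as the only control (0.53) and without the second NT3 library (0.27), and was at -0.13 with NT4 alone. E2F1 had values of 73.9, 81.9 and 67.1, its lowest group (-1.30 ± 0.099 on the log2 scale, limma adjusted p = 7.33e-10), and kept 40.5%. E2F2 had values of 4.41, 0 and 2.0, on 4, 0 and 2 reads (-2.38 ± 0.42 on the log2 scale, limma adjusted p = 8.35e-05). E2F8 had values of 4.41, 0 and 8.01, on 4, 0 and 8 reads (-2.04 ± 0.45 on the log2 scale, limma adjusted p = 0.000921). Summed reads put E2F2 at 16.0% (exact 95% interval 5.70 to 36.3%) of the controls and E2F8 at 30.1% (exact 95% interval 15 to 55.4%). E2F4, at 563, 637 and 606, kept 78.7% (-0.35 ± 0.052 on the log2 scale, limma adjusted p = 1.31e-05).

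In the other calls of the dual knockdown the libraries overlapped the controls. E2F3 had values of 558, 691 and 599 (-0.27 ± 0.072 on the log2 scale, limma adjusted p = 0.00432), and its call was lost with NT4 alone (-0.14, adjusted p = 0.193 by limma) and without the first dual library (-0.20, adjusted p = 0.0521). E2F5 had values of 36.4, 60.1 and 52.1 (-0.43 ± 0.16 on the log2 scale, limma adjusted p = 0.0305). Without the first dual library its value was -0.23 (adjusted p = 0.282 by limma), and edgeR and DESeq2 on recovered reads did not call it (adjusted p = 0.0559 and 0.0591). With quantile normalization it was -0.14 (adjusted p = 0.522 by limma). In all, the E2F5 call was lost in 9 of 21 alternatives, among them those without the third NT3 or the first NT4 library. TFDP1 was called higher, at 2059.6, 1939 and 1974 (0.12 ± 0.044 on the log2 scale, limma adjusted p = 0.0353). With NT4 as the only control its log2 fold change was 0.00049 (adjusted p = 0.995 by limma), and with quantile normalization it was 0.043 (adjusted p = 0.476). The TFDP1 call was also lost without the second NT4, the first dual or the third dual library. Without the first dual library 5 members were called in place of 8, where 36.6% of the tested genes were called.

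Whether the dual knockdown equalled the sum of the single knockdowns on the log2 scale was tested within the same fit. The departure from the sum was called for 3 of the 10 members, in a test that called 6.35% of the tested genes. RBL1 lay below the sum: the single knockdowns gave 0.19 and -0.13, the sum predicts 103.7% of the control level, and 56.5% was measured (departure -0.88 ± 0.21, limma adjusted p = 0.0131). E2F1 also lay below it, with 62.1% predicted and 40.5% measured (departure -0.62 ± 0.15, limma adjusted p = 0.0158). E2F4 lay above it, with 59.5% predicted and 78.7% measured (departure 0.40 ± 0.079, limma adjusted p = 0.0027). The E2F4 means were 558 ± 14.5 with CDK4, 622 ± 8.07 with CDK6 and 602 ± 37.0 with dual knockdown (SD, n = 3), so the dual level lay between those of the single knockdowns. The RBL1 and E2F1 departures were not called with NT4 as the only control (-0.59, adjusted p = 0.166, and -0.53, adjusted p = 0.0716, by limma). The RBL1 call was also lost without the third CDK6 knockdown library, and the E2F1 call under quantile normalization and without the second CDK4, the first CDK6 or the third dual library. E2F2 and E2F8 had wide errors (SE 0.64 and 0.69), so a departure of the size seen for RBL1 was not detectable for them at this depth.

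**Figure D4:**
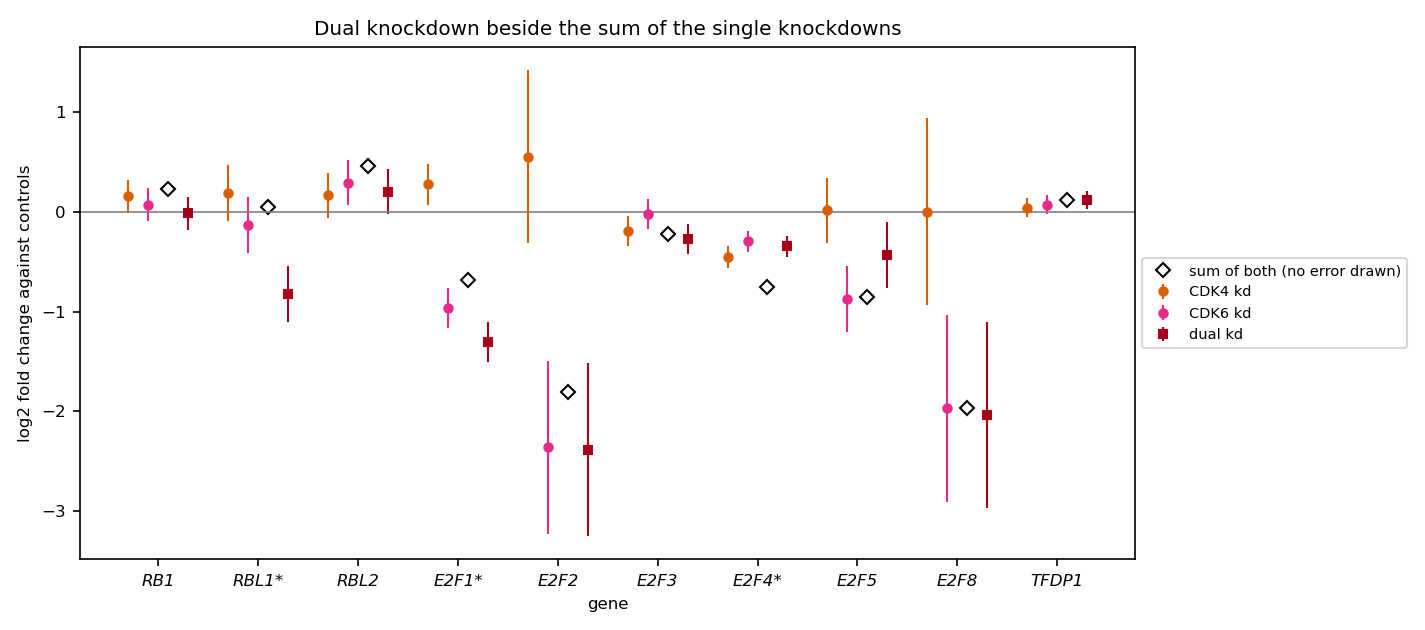
For each member, the log2 fold change against the 6 control libraries with CDK4 knockdown, CDK6 knockdown, their sum, and the dual knockdown; bars are 95% intervals. The dual point lies below the sum for RBL1 (departure -0.88) and E2F1 (-0.62) and above it for E2F4 (0.40).

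The knockdowns were also set directly against each other. Dual against CDK6 knockdown called RBL1 alone among the members, where 13.0% of the tested genes were called (-0.69 ± 0.16 on the log2 scale, limma adjusted p = 0.00459). E2F1 and E2F3 were each lower in all 3 dual than in all 3 CDK6 knockdown libraries, and both missed the threshold (-0.34 ± 0.11 on the log2 scale, limma adjusted p = 0.052 for E2F1; -0.25 ± 0.083 on the log2 scale, limma adjusted p = 0.0548 for E2F3). E2F1 was called in 3 of the alternatives and E2F3 in 5, both of them without the second dual library. E2F5 was called higher without the first dual library (0.64) and with quantile normalization (0.63). CDK6 against CDK4 knockdown called 5 members, where 34.8% of the tested genes were called. E2F1 (-1.24 ± 0.11 on the log2 scale, limma adjusted p = 2.86e-08), E2F2 (-2.92 ± 0.48 on the log2 scale, limma adjusted p = 5.8e-05), E2F5 (-0.89 ± 0.18 on the log2 scale, limma adjusted p = 0.000593) and E2F8 (-1.98 ± 0.52 on the log2 scale, limma adjusted p = 0.00495) were lower with CDK6 knockdown. E2F4 was higher with CDK6 than with CDK4 knockdown (0.16 ± 0.060 on the log2 scale, limma adjusted p = 0.0462), a call that was lost when any 1 of the 6 libraries was left out. The 2 knockdowns thus differed for the activators E2F1 and E2F2, and for E2F5 and E2F8, in the direction of lower levels after CDK6 knockdown. The part of unequal depletion of the target RNAs, and of siRNA effects beyond the target, was not tested. The E2F8 difference depended on the pseudocount, at -2.28 and not called with 0.1 (limma adjusted p = 0.0688) and -0.90 with 10 (limma adjusted p = 0.000771), and the E2F2 difference was -1.30 with 10. Dual against CCND1 knockdown called 4 members, where 20.3% of the tested genes were called. RBL1 (-0.71 ± 0.16 on the log2 scale, limma adjusted p = 0.00214), E2F1 (-0.66 ± 0.11 on the log2 scale, limma adjusted p = 0.000217) and E2F4 (-0.27 ± 0.060 on the log2 scale, limma adjusted p = 0.0026) were lower with dual knockdown, and TFDP1 was higher (0.19 ± 0.051 on the log2 scale, limma adjusted p = 0.00978). The TFDP1 call was lost without the first dual library (adjusted p = 0.0523 by limma). E2F2 was called lower without the first dual library (-1.44) and E2F8 without the third (-1.89).

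Ratios of reads within a library do not depend on its size factor, and were used to compare groups. They are not divided by transcript length, so a ratio does not give the relative amounts of 2 RNAs. For each library, the RBL1 (p107) reads were divided by the RBL2 (p130) reads. This ratio was 0.642 ± 0.051 (range 0.609 to 0.701) in proliferating cells (SD, n = 3 here and below), 0.187 ± 0.039 (range 0.157 to 0.231) in NT3 and 0.175 ± 0.018 (range 0.163 to 0.195) in NT4. The RBL1 to RBL2 ratio was 0.182 ± 0.0034 (range 0.178 to 0.185) with CDK4, 0.139 ± 0.02 (range 0.117 to 0.156) with CCND1, 0.136 ± 0.03 (range 0.102 to 0.158) with CDK6 and 0.0884 ± 0.012 (range 0.0765 to 0.101) with dual knockdown. Every dual library lay below every library of the other groups. The ratio of E2F1 to E2F4 reads was 0.66 ± 0.0094 (range 0.653 to 0.671) in proliferating cells, 0.221 ± 0.012 (range 0.213 to 0.235) in NT3 and 0.264 ± 0.02 (range 0.242 to 0.279) in NT4. It was 0.403 ± 0.052 (range 0.373 to 0.463) with CDK4, 0.163 ± 0.018 (range 0.144 to 0.181) with CCND1, 0.152 ± 0.02 (range 0.132 to 0.172) with CDK6 and 0.124 ± 0.011 (range 0.111 to 0.131) with dual knockdown. All CDK4 knockdown libraries were above, and all CCND1, CDK6 and dual libraries below, the 6 control libraries. The ratio of E2F5 to E2F4 reads was lowest with CDK6 knockdown, at 0.0571 ± 0.0013 (range 0.0563 to 0.0585), below all other libraries. That of RB1 to RBL2 ran from 0.968 to 1.09 in NT4 to 1.5 to 1.97 in NT3, and the NT3 range overlapped that of proliferating cells (1.53 to 1.62) but not that of NT4. These ratios are descriptions with no test of their own.

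**Figure D5:**
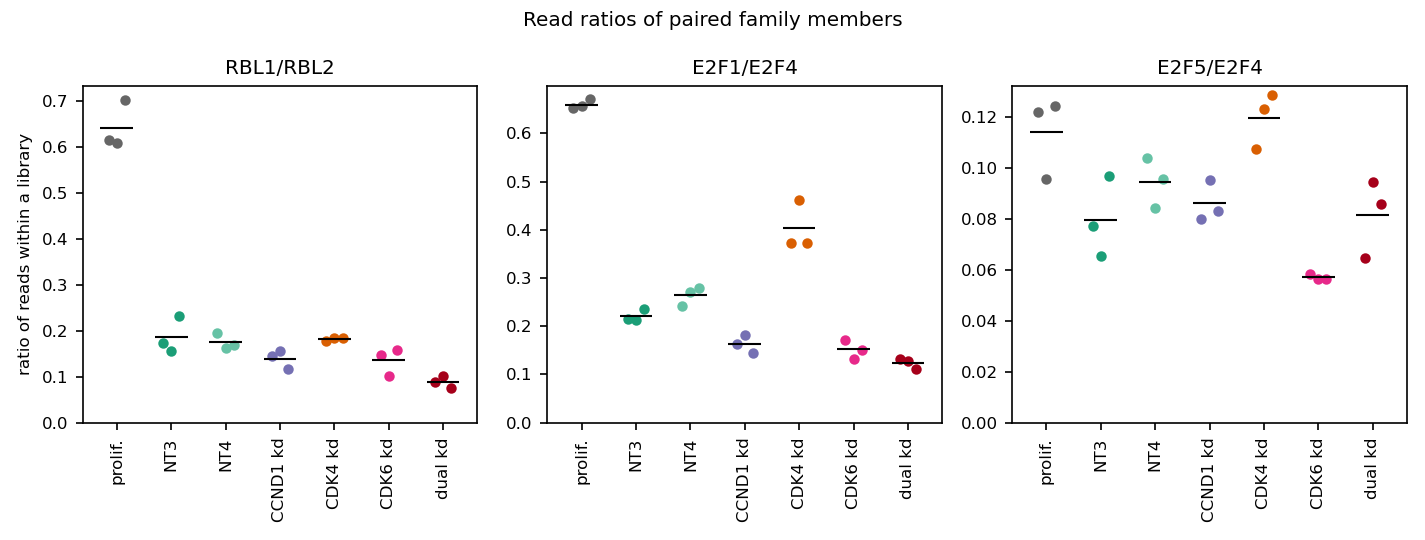
Ratio of reads within each library for RBL1 to RBL2, E2F1 to E2F4 and E2F5 to E2F4; points are libraries, lines are means of 3, and axes start at 0. The RBL1 to RBL2 ratio is lowest in the dual knockdown (0.0765 to 0.101), and the E2F1 to E2F4 ratio with CDK4 knockdown (0.373 to 0.463) lies above both controls.

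Ordered by mean level, proliferating cells came first for all 10 members, and the order of the irradiated groups depended on the gene. For E2F1 the order went on with CDK4 knockdown, NT4, NT3, CCND1 knockdown, CDK6 knockdown and dual knockdown, and of these neighbours CCND1 and CDK6 overlapped. RBL1 went from NT4 through CDK4, CCND1 and CDK6 knockdown to NT3, each overlapping the next, with dual knockdown apart at the end. For E2F4 the order was NT3, NT4, CCND1, CDK6, dual and CDK4 knockdown, with a gap between CCND1 and CDK6 and overlaps elsewhere. E2F5 and E2F8 both ended with dual and then CDK6 knockdown, which overlapped in each gene. E2F2 ended in the same way, with CCND1 before them. RB1, E2F5, E2F8 and TFDP1 had no gap between any neighbouring irradiated groups, and E2F3 had none even from proliferating cells to NT3. Among the irradiated groups RBL2 had gaps between CCND1 and dual knockdown and between CDK4 knockdown and NT3, the lowest group.

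Genes that E2F proteins are known to drive were counted beside the members, from lists that were chosen with earlier results of these data known. Of 35 G1/S genes, mostly replication factors, 35 fell from proliferating to control cells, with a median log2 fold change of -2.05. Against the controls, 22 fell with CCND1, 33 with CDK6 and 34 with dual knockdown, with medians of -0.38, -0.64 and -1.01, and none rose. With CDK4 knockdown 1 rose, RRM2, and 1 fell, UNG, and the median was 0.07. CDC6, which loads the replicative helicase, had log2 fold changes of -0.66 with CCND1, 0.14 with CDK4, -1.13 with CDK6 and -1.95 with dual knockdown; all but the CDK4 value passed the test. Of 29 G2/M genes, which the DREAM complex and later B-MYB and FOXM1 act on, 29 fell in control cells, 25 with CCND1, 27 with CDK6 and 29 with dual knockdown. With CDK4 knockdown 13 of the 29 rose and none fell, with a median of 0.35; CCNB1, the mitotic cyclin, rose by 0.49 on the log2 scale (SE 0.11, limma adjusted p = 0.00249). Below the sum of the single knockdowns lay 27 of the 29 G2/M genes and 9 of the 35 G1/S genes, and 1 G1/S gene, UNG, lay above it. The median over all tested genes was between -0.03 and 0.003 in these comparisons. Of all tested genes 36.1% fell in control against proliferating cells. With CCND1, CDK4, CDK6 and dual knockdown 14.4%, 7.55%, 20.8% and 21.5% fell, and with CDK4 knockdown 16.0% were called in either direction. The departure from the sum was called for 6.35%. The E2F letters above were in 28.0% of 50 promoter entries of the G1/S list and 9.68% of 31 of the G2/M list.

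The partners of the family moved in part. E2F6, a repressor without a pocket protein site, passed the test in none of these comparisons (-0.03 in control against proliferating cells). TFDP2, the other DP gene, fell in control cells (-0.48 ± 0.066 on the log2 scale, limma adjusted p = 1.19e-06), with CDK4 knockdown (-0.44 ± 0.066 on the log2 scale, limma adjusted p = 8.08e-05) and with CCND1 knockdown (-0.18, adjusted p = 0.0465 by limma). E2F7 and LIN9 were not analysed here. Of 8 tested MuvB and MYB genes and their regulators, 6 fell and 1 rose in control against proliferating cells, 6 fell with CCND1, 5 fell with CDK6, and 6 fell and 1 rose with dual knockdown. Over all tested genes 36.1%, 14.4%, 20.8% and 21.5% were called lower in these comparisons. With CDK4 knockdown only MYBL1 was called, higher (0.36 ± 0.082 on the log2 scale, limma adjusted p = 0.00395). MYBL2, which encodes B-MYB and is an E2F target, had log2 fold changes of -0.53 with CCND1, 0.28 with CDK4, -1.18 with CDK6 and -2.41 with dual knockdown, and its departure from the sum was -1.51 (SE 0.20, limma adjusted p = 3.56e-05). FOXM1 fell by less with CDK6 knockdown (-0.68) than with dual knockdown (-2.42), and the dual against CDK6 difference was -1.74 (SE 0.090, limma adjusted p = 3.97e-11).

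The kinase side sets how far the pocket proteins are phosphorylated. Of its 15 tested cyclins, kinases and inhibitors, 7 rose and 7 fell in control against proliferating cells, where 68.6% of tested genes were called. CDKN1A, which encodes the inhibitor p21, rose (2.55 ± 0.043 on the log2 scale, limma adjusted p = 3.93e-21). CCNE2, a cyclin E gene and E2F target, had log2 fold changes of -0.65 with CCND1, -1.48 with CDK6 and -2.29 with dual knockdown, all called lower, and 0.26 with CDK4 knockdown, not called (limma adjusted p = 0.508). CDK2, the kinase that cyclin E binds, fell with CDK4 (-1.04), CDK6 (-1.10) and dual knockdown (-1.89), with limma adjusted p = 4.73e-10, 4.41e-11 and 6.28e-15. Of 15 genes, 13 were called with CDK6, 14 with dual, 8 with CCND1 and 7 with CDK4 knockdown, the targeted genes among them, against 41.9%, 44.0%, 31.0% and 16.0% of all tested genes. Of 16 corepressors that pocket proteins recruit, 11 fell and 2 rose in control cells, where 36.1% of tested genes fell and 68.6% were called. The median of the corepressors was -0.43. SUV39H1, a histone methyltransferase, fell most among them (-1.41 ± 0.12 on the log2 scale, limma adjusted p = 5.15e-10), and RBBP7, a histone-binding subunit, fell as well (-1.02, adjusted p = 1.85e-11 by limma). With knockdown, 2 of the 16 were called for CCND1, 1 for CDK4, 4 for CDK6 and 4 for the dual, against 31.0%, 16.0%, 41.9% and 44.0% of all tested genes. RBBP8, which encodes the pocket-binding protein CtIP, was lower with CDK6 (-0.26) and dual knockdown (-0.66, adjusted p = 2.55e-06 by limma).

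The genes with the most similar pattern were found among 9098 candidates with a mean of at least 100 normalised counts, by the root mean square difference of centred log2 means over the 7 groups, a description over groups that share the same fit and controls. They were GINS4, KNTC1 and PARPBP for RBL1 (0.151 to 0.154), TRIP13, FANCG and CEP152 for E2F1 (0.151 to 0.17) and CDCA7, AURKB and LMNB1 for E2F8 (0.226 to 0.342). For the genes that changed less they were ANAPC1, NOL11 and SNRNP70 for RB1 (0.0395 to 0.0464), HGF, SLC38A1 and USP34 for RBL2 (0.0299 to 0.0625) and PPP4R1, ING5 and MED14 for TFDP1 (0.0321 to 0.0469). E2F3 was closest to IFITM2, TAF1C and CNPY3 (0.0449 to 0.0519), and E2F4 to RITA1, PPIL4 and NVL (0.0669 to 0.0717). E2F5 had SLC5A3, PTBP1 and MPP4 (0.0935 to 0.136). For E2F2, at few reads, the nearest candidates were ASF1B, UBE2C and CDC45 at 0.481 to 0.494, and E2F8, whose mean is under the minimum, was nearer at 0.428.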

How the data were processed

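RNA sequencing of poly(A) RNA was deposited as 1 table of 16383 genes for 21 libraries. The deposited signal values are called normalised counts per the file headers. All values were whole multiples of 1 step per library within 0.01 reads, for 100% of values, so each is a read count divided by 1 size factor, and reads were recovered from them. Trimmomatic 0.38.1, HISAT2 2.2.1, featureCounts 2.0.3, FastQC 0.74, MultiQC and DESeq2 2.11.40.8 with build hg38 are named per the submitters' processing notes. The annotation and strand setting of the counting are not given in the sources used here. Table columns give the group but no replicate number, so libraries of a group are numbered in column order, as names only.

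A gene was tested where 3 or more libraries reached a value of 10. This kept 11579 genes, all 10 members included; E2F2 and E2F8 held few reads in the irradiated groups. Values were put on the log2 scale after adding a pseudocount of 1, and all 21 libraries entered 1 limma model (limma 3.58.1, R 4.3.3) with group means and a trended empirical Bayes variance. Tests were two-sided, with Benjamini-Hochberg adjustment over all tested genes of a comparison and a threshold of 0.05. The limma script was tested on simulated data. Differences in summed reads carry exact 95% binomial intervals, which cover counting error only. Levels per kilobase used GENCODE canonical transcripts of GRCh38, and promoters were RefSeq entries of GRCh38.p14. Alternatives were other pseudocounts, filters and scalings, edgeR 4.0.16 and DESeq2 1.42.0 on recovered reads, a fit of the compared groups alone, each control alone, and leaving out each library. All 10 members are named, at most 4 genes of any other list apart from the targeted genes, and the 3 most similar genes per member. The members, lists and tests were chosen with earlier results of these data known. A protein table was not used here.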

Additional observations from a re-analysis of the deposited data

Results flagged for a closer look

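For 3 members the effect of one kinase knockdown differed with the state of the other, by the test of the difference itself (dual knockdown minus the summed effects of both single knockdowns, on the log2 scale). RBL1 departed from the sum by -0.88 (SE 0.21, limma adjusted p = 0.0131), and its values ran from -1.17 to -0.59 over the alternatives (adjusted p 0.000992 to 0.166 by the tool of each). All 3 dual libraries held fewer normalised counts of RBL1 than any CDK4 or CDK6 knockdown library. E2F1 departed from the sum by -0.62 (SE 0.15, limma adjusted p = 0.0158), with values from -0.71 to -0.48 over the alternatives (adjusted p 0.00467 to 0.0716 by the tool of each). E2F4 departed from it by 0.40 (SE 0.079, limma adjusted p = 0.0027), with values from 0.36 to 0.45 (adjusted p 0.00047 to 0.0195 by the tool of each), and it was called under every alternative tried. The CDK4 and CDK6 RNAs themselves were at 108.1 and 773 normalised counts in the single knockdowns and 117.4 and 968 in the dual one, and the part of this in the departures was not tested.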

How the results depend on the processing

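Of 2006 member values under the alternatives, 1833 kept their direction and their side of the threshold, 71 that were called in neither fit turned their sign (18 of them with NT3 or NT4 as the only control), 67 lost a call, 34 gained one and 1 called value turned, RBL2 with CDK6 knockdown (-0.037 with NT4 as the only control). The number of members called stayed within 1.5 times in 186 of 204 cases. With a filter on a mean of 100, under which E2F2, E2F5 and E2F8 are no longer tested, the calls were 2 for CDK4, 3 for CDK6, 5 for dual knockdown, 3 for dual against CDK6 and 2 for CDK6 against CDK4, in place of 1, 6, 8, 1 and 5. Under this filter 20.5%, 47.8%, 48.2%, 16.1% and 39.9% of the tested genes were called. For CDK4 knockdown edgeR and DESeq2 each called 2 members, and NT3 as the only control gave 6. Of the tested genes 16.7%, 18.1% and 25.6% were called there. The departure from the sum was called for 1 member with NT4 as the only control, where 3.93% of the tested genes were called. Dual against CDK6 knockdown gave 3 members with quantile normalization, 2 with DESeq2 and 2 when just the compared groups were fitted, and NT4 against NT3 gave 1 in such a fit, where fewer libraries enter. The cause of these changes was not tested.

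Leaving out 1 library at a time gave 10 to 10 calls against proliferating cells, 3 to 4 for NT4 against NT3, 2 to 4 for CCND1, 1 to 3 for CDK4, 5 to 6 for CDK6 and 5 to 9 for dual knockdown, 2 to 3 for the departure, 1 to 3 for dual against CDK6, 4 to 4 for CDK6 against CDK4 and 4 to 5 for dual against CCND1. The shares of tested genes called ran from 63.4% to 73.0% against proliferating cells and from 19.5% to 35.8% for NT4 against NT3. They were 22.0% to 36.0% for CCND1, 9.19% to 23.3% for CDK4, 33.3% to 47.0% for CDK6 and 36.6% to 51.4% for dual knockdown. For the departure they were 3.82% to 12.4% and for dual against CDK6 8.10% to 10.8%. CDK6 against CDK4 had 28.7% to 30.8% and dual against CCND1 15.1% to 18.0%. The 3 calls for CDK4 came without the third NT3 library, the 5 for dual without the first dual library, and the 3 for dual against CDK6 without the second dual library. In those fits 23.3%, 36.6% and 10.8% of the tested genes were called. E2F2 and E2F8, with 5 to 12 reads in 3 CDK6 or dual libraries, are limited by depth.

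The table columns carry no replicate number of the labels, so the labels pair no libraries. As an alternative chosen after seeing the data, a replicate block on runs of 6 consecutive library numbers was fitted to the irradiated libraries. Libraries of a run had deviations that correlated between -0.11 and 0.1, so the runs were not shown to pair them. With the block 7 members were called for dual and 5 for CDK6 knockdown, and 4859 genes for dual. Without it, on the same libraries, these were 7 and 5 members and 4876 genes. The shares of tested genes called were 42.0% for dual and 40.4% for CDK6 knockdown with the block, and 42.1% and 40.1% without it.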

Other observations

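Within the family, the centred log2 profiles over the 7 group means were closest for RB1 and TFDP1 (root mean square difference 0.114) and for E2F3 and E2F4 (0.147), and furthest apart for RBL2 and E2F2 (1.72). Motifs of other cell cycle factors were also counted in the 250 bases before the start, as descriptions. CCAAT on either strand was in 3 of the 10 member entries (the second of RBL2, E2F1 and the first of E2F3), against 32.0% of all RefSeq entries and 77.4% of those of the G2/M list. The CHR letters TTTGAA or TTCGAA, at which MuvB binds, were in 1 member entry, the first of E2F3, against 14.3% of all entries and 51.6% of the G2/M list.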
